A study of Mus musculus with 9 samples.

Results

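Mast cell transcripts were measured in the atrioventricular (AV) node, which passes the heartbeat's electrical signal, after a pause, to the ventricles. The genes chosen were 6 of the 34198 gene symbols in the deposited table: the granule proteases Cpa3, Mcpt4, Cma1 and Tpsb2, the receptor tyrosine kinase Kit and the IgE receptor subunit Ms4a2. They were picked by symbol as textbook mast cell genes, with earlier results of these data known, and all 6 were in the table. Bulk RNA sequencing gave 9 libraries of microdissected nodes from C57BL/6J mice, 3 in each of 3 groups. The first group was macrophage-depleted Cd11bDTR mice (libraries 7, 8 and 9), a strain in which a diphtheria toxin receptor is placed under the CD11b promoter. The second was Cx3cr1 Cx43-/- mice (libraries 4, 5 and 6), in which connexin 43 is deleted in cells expressing Cx3cr1. The third was control mice (libraries 1, 2 and 3), for which the labels give no further genotype or treatment. Any inducing drug, any toxin schedule, age, sex and any pooling of mice are not given in the sources used here. Libraries within a group are biological replicates according to the series' design text.

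Mast cells are resident immune cells of connective tissue, and in the heart they lie near vessels and in the interstitium. Stem cell factor, encoded by Kitl, keeps them alive through Kit, and antigen bound to IgE activates them through the high-affinity IgE receptor, whose alpha, beta and gamma chains are Fcer1a, Ms4a2 and Fcer1g. Their granules hold histamine and proteases, among them chymases, tryptases and carboxypeptidase A. In the mouse, Mcpt4 and Cma1 are chymases of connective tissue mast cells, while Mcpt1 and Mcpt2 mark mucosal ones.

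RefSeq promoter entries of build GRCm38.p6 were found for 5 of the 6 genes, and Tpsb2 had no entry. The 250 bases before the start of 1 entry per gene are shown, because GATA2 is a textbook regulator of mast cell genes. The 5 genes carry the letters GATAA, 1 form of a GATA site, to different extents, and other forms were not searched for or marked. Capitals mark GATAA on either strand (GATAA or TTATC) and the TATA box letters TATAAA on the forward strand. No 2 matches overlapped. Positions are counted backwards from the start, with -1 as the last base shown.
Cpa3 promoter, GRCm38.p6 chr3:20242182-20242431, minus strand: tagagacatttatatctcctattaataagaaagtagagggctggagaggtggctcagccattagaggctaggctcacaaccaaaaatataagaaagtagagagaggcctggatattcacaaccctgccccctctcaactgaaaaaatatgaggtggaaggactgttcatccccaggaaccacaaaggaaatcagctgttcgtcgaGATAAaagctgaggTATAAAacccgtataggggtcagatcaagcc
Mcpt4 promoter, GRCm38.p6 chr14:56062311-56062560, minus strand: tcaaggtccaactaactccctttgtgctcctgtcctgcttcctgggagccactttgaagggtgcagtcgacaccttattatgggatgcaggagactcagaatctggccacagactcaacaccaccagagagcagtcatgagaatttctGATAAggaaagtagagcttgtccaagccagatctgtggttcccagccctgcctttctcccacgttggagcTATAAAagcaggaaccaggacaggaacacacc
Cma1 promoter, GRCm38.p6 chr14:55944676-55944925, minus strand: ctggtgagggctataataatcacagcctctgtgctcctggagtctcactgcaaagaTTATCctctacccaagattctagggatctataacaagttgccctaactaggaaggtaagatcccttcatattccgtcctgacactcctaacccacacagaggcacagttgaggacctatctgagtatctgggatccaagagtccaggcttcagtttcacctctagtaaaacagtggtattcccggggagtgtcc
Ms4a2 promoter, GRCm38.p6 chr19:11623720-11623969, minus strand: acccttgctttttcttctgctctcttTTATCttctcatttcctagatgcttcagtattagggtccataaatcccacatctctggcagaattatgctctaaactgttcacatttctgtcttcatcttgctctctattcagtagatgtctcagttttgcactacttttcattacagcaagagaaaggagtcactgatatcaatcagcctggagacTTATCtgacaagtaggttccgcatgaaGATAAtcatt
Kit promoter, GRCm38.p6 chr5:75574737-75574986, plus strand: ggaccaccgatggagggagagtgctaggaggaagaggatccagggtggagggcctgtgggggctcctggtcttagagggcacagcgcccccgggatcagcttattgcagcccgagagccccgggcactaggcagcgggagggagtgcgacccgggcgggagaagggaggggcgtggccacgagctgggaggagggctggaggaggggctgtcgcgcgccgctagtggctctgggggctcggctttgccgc
Cpa3 held GATAA at -45 to -41 and TATAAA at -31 to -26. Mcpt4 held GATAA at -102 to -98 and TATAAA at -32 to -27, so this pair of proteases had a TATA box at nearly the same place. Cma1 held a single TTATC, at -194 to -190. Ms4a2 held 3 matches of GATAA or TTATC, at -224 to -220, -37 to -33 and -10 to -6. Kit held neither set of letters in this window. It had 2 promoter entries, of which only the one shown was searched. The Kit sequence shown was 70.8% G and C with 17 CG dinucleotides, against medians of 52.4% and 6 over all promoters. The other 4 were 38.8% to 51.2% G and C, with 1 to 3 CG dinucleotides each. Of 32851 promoter windows of the same length, 22.6% held GATAA on either strand and 7.59% held TATAAA. A match describes the letters only, and no binding data were used.

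The values are CPM, read counts set relative to library size, as the authors deposited them. A single read was worth 0.0154 to 0.0192 CPM, so 1 CPM rested on about 52.1 to 64.9 reads. Listed genes took 28.3% to 48.7% of the CPM denominator, and the depleted libraries took 44.0%, 37.7% and 28.3% in libraries 7, 8 and 9, against 42.8% to 48.7% in the 6 others. Symbols above 0 numbered 14713 to 16591 in the depleted libraries, 17418 to 18451 in Cx3cr1 Cx43-/- libraries and 15130 to 18748 in control libraries. Control library 2 held the fewest in its group, and depleted library 8 the fewest of all 9. The nodal genes Hcn4 and Tbx3, which mark pacemaker and conduction tissue, were above 0 in every library, but lowest in the depleted ones. Hcn4 had 1.8 to 3.8 CPM in depleted, 15.54 to 19.91 in Cx3cr1 Cx43-/- and 15.45 to 19.26 in control libraries. Tbx3 had 11.63 to 16.31, 26.62 to 37.87 and 30.06 to 37.91 CPM in the same order. Of the genes behind the models, Gja1 (connexin 43) averaged 71.7 ± 16.8 CPM in depleted, 219 ± 36.4 in Cx3cr1 Cx43-/- and 207 ± 41.8 in control libraries, Cx3cr1 averaged 2.07 ± 0.778, 3.91 ± 1.71 and 5.56 ± 1.75 CPM, and Itgam, which encodes CD11b, 6.47 ± 3.77, 8.98 ± 2.08 and 5.31 ± 3.65 CPM (SD, n = 3 each).

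The first question was what happened to mast cell transcripts when macrophages were depleted. Cpa3, Mcpt4, Tpsb2 and Kit fell in depleted nodes, with log2 differences of -3.04 to -1.58. No depleted library overlapped a control library for any of these 4 genes. Over all 12925 genes tested, 33.0% were called lower in this comparison and 38.0% were lower without overlap. Cma1 had the smallest difference in this fit (with library quality weights Kit did, at -1.49 against -1.53 for Cma1), and its call rested on the settings of the test. Ms4a2 was near the limit of detection in every group. A gene was tested if it reached 1 CPM in at least 3 of the 9 libraries, and Ms4a2 reached that level in none. The other 5 genes reached 1 CPM in all 6 control and Cx3cr1 Cx43-/- libraries, and Cma1 also in the 3 depleted ones, so 4 of them entered the test through the groups in which they were high. Differences come from limma on log2(CPM + 0.5), with Benjamini-Hochberg adjustment over 12925 genes and a threshold of 0.05, and they understate the change of low genes. In bulk tissue, fewer cells of a type and less RNA per cell cannot be told apart.

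Cpa3 encodes carboxypeptidase A of the mast cell granule. It had 0.21, 0.00 and 0.00 CPM in the depleted libraries 7, 8 and 9, 4.66, 5.61 and 4.46 CPM in Cx3cr1 Cx43-/- libraries 4, 5 and 6, and 5.36, 1.82 and 6.80 CPM in control libraries 1, 2 and 3. Libraries 8 and 9 listed the gene at 0, and the value in library 7 corresponded to about 12 reads, against about 98 reads in the lowest control library. The log2 difference of depleted minus control was -3.04 (SE 0.41, limma adjusted p = 9.75e-06, lower in 3 of 3 libraries). Its size depended on the pseudocount, at -4.84 with 0.1 and -1.60 with 2 in place of 0.5, and the call held with both.

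Mcpt4 encodes a chymase, a serine protease that in the mouse acts on matrix proteins and angiotensin. It had 0.35, 0.84 and 1.08 CPM in the depleted libraries, 7.44, 7.93 and 4.71 CPM in Cx3cr1 Cx43-/- libraries and 8.45, 5.22 and 8.25 CPM in control libraries. The highest depleted library lay well under the lowest library of the other groups, which was library 6 of the Cx3cr1 Cx43-/- group. The log2 difference from control was -2.65 (SE 0.34, limma adjusted p = 5.89e-06).

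Tpsb2 encodes a tryptase, which is stored as a heparin-bound tetramer. It had 1.69, 0.44 and 0.49 CPM in the depleted libraries, 7.85, 6.56 and 6.63 CPM in Cx3cr1 Cx43-/- libraries and 7.70, 2.83 and 7.15 CPM in control libraries. Library 7 was the highest of the depleted group for this tryptase and also for Cpa3, but the lowest for Mcpt4 and Cma1. The log2 difference from control was -2.23 (SE 0.39, limma adjusted p = 0.000175).

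Cma1, the other chymase, had 1.07, 1.15 and 1.32 CPM in the depleted libraries, 5.24, 4.38 and 4.41 CPM in Cx3cr1 Cx43-/- libraries and 4.78, 1.06 and 4.73 CPM in control libraries. Control library 2 lay under all 3 depleted libraries, so the groups overlapped, while control libraries 1 and 3 lay far above them. The log2 difference from control was -1.06 (SE 0.40, 95% confidence interval -1.89 to -0.23, limma adjusted p = 0.0420). Without control library 2 it was -1.65. Without control library 1 or 3 it was -0.77 or -0.78, and the call was lost (limma adjusted p = 0.217 and 0.209).

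Kit encodes the stem cell factor receptor, which mast cells keep through life but which melanocytes and some endothelial and interstitial cells also carry. It had 0.76, 1.46 and 0.32 CPM in the depleted libraries, 5.11, 4.47 and 4.22 CPM in Cx3cr1 Cx43-/- libraries and 5.31, 1.73 and 3.70 CPM in control libraries. Depleted library 8, the highest of its group, came close to control library 2, the lowest of its own. The log2 difference from control was -1.58 (SE 0.40, limma adjusted p = 0.00402).

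Ms4a2 encodes the beta chain that amplifies signals of the IgE receptor. It was listed at 0.00 CPM in all 3 depleted libraries, at 0.00, 0.24 and 0.15 CPM in Cx3cr1 Cx43-/- libraries and at 0.21, 0.00 and 0.10 CPM in control libraries. The highest of these values corresponded to about 14 reads. Libraries with and without reads were mixed within the Cx3cr1 Cx43-/- and control groups, so no difference was detectable at this depth and no test was made.

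**Figure D1:**
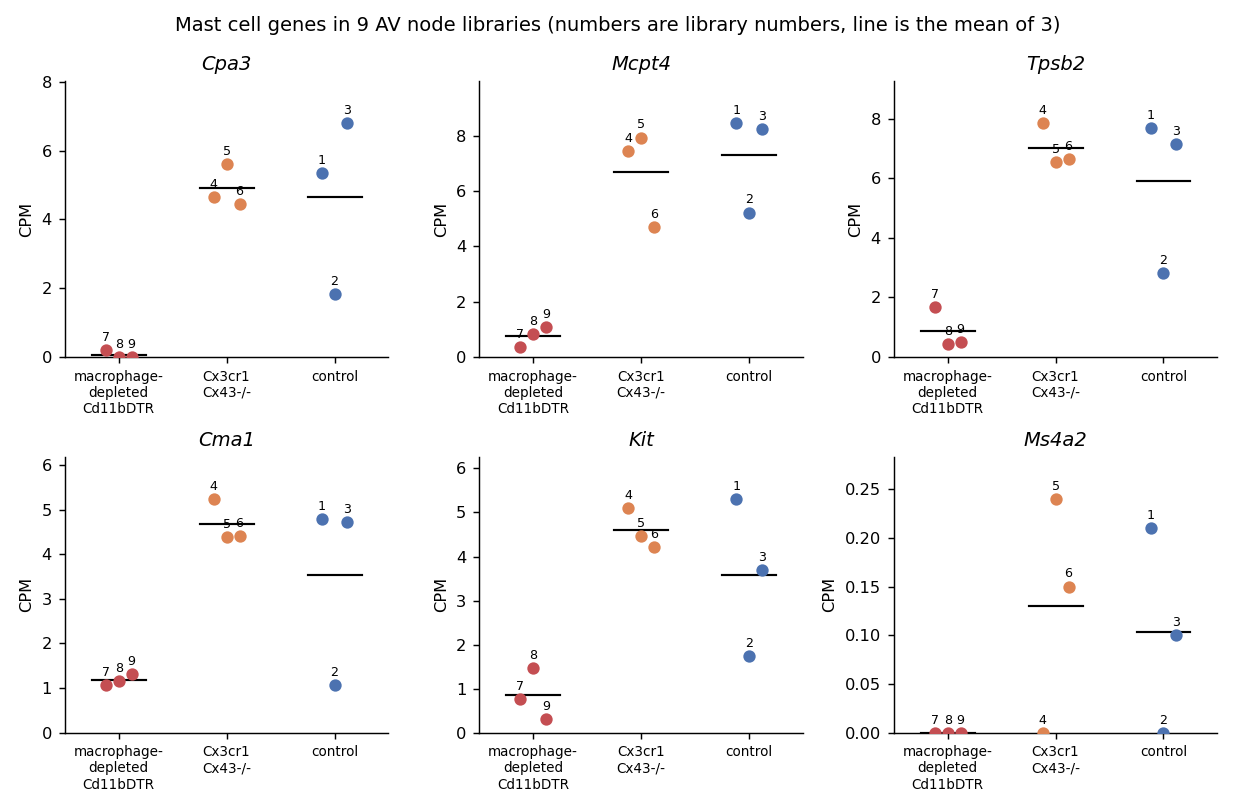
CPM of each of the 6 mast cell genes (one panel each, own axis from 0) in macrophage-depleted, Cx3cr1 Cx43-/- and control libraries. Points are libraries with their numbers and the line is the mean of 3; the depleted libraries sit lowest for Cpa3, Mcpt4, Tpsb2 and Kit, and control library 2 sits at 1.06 CPM for Cma1, beside the depleted ones.

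All 5 tested genes passed the threshold as lower in depleted than in control nodes, where 33.0% of the 12925 genes tested did so and 3.23% were higher. Their median log2 difference was -2.23, against -0.49 over all genes tested. The genes were chosen with earlier results of these data known, so their counts beside all genes are descriptive. Libraries that did not overlap, with the depleted ones lower, were seen for 4 of the 5 genes and for 38.0% of all genes tested. The share of the CPM denominator in listed genes differed between libraries, so other scalings were tried. With libraries rescaled to a common total over listed genes the median of all genes was -0.18, and with median-of-ratios scaling it was -0.03. On those scales 4 of the 5 genes were lower, beside 19.6% and 13% of all genes, while 8.79% and 13.1% of all genes were higher. Log2 differences on the median-of-ratios scale were -2.89 for Cpa3 (limma adjusted p = 0.000118), -2.28 for Mcpt4, -1.90 for Tpsb2 and -1.26 for Kit. With a pseudocount of 2 the differences of Mcpt4, Tpsb2 and Kit were -1.74, -1.42 and -0.94, all still called. Cma1 was the exception on both other scales, at -0.80 and -0.67 (limma adjusted p = 0.160 and 0.233).

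Control library 2 was the lowest control library for all 6 genes, and it was also the control library with the fewest symbols above 0. The summed CPM of the 6 genes was 4.08, 3.89 and 3.21 in the depleted libraries 7, 8 and 9, and 31.8, 12.7 and 30.7 in control libraries 1, 2 and 3. The part of the lower complexity of that library in its values was not tested. Without control library 2 all 5 genes were called, beside 33.8% of all genes that were lower, with differences of -1.65 for Cma1, -3.54 for Cpa3, -2.86 for Mcpt4, -2.64 for Tpsb2 and -1.97 for Kit. They were also called without it and depleted library 8 together, beside 31.8% of all genes.

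The second comparison set depleted nodes against Cx3cr1 Cx43-/- nodes. It uses the same depleted libraries as the first, so it is not independent of it. The depleted libraries were lower than every Cx3cr1 Cx43-/- library for Cpa3, Mcpt4, Tpsb2, Cma1 and Kit. Log2 differences were -3.26 for Cpa3 (SE 0.41), -2.53 for Mcpt4 (SE 0.34), -2.56 for Tpsb2 (SE 0.39), -1.62 for Cma1 (SE 0.40) and -2.01 for Kit (SE 0.40). All 5 passed (limma adjusted p = 4.16e-06 to 0.00319), beside 40.7% of all genes tested that were lower and 50.6% with libraries that did not overlap in that direction. All 5 also passed on the common-total and the median-of-ratios scales, where 20.9% and 12.9% of genes were lower. With a pseudocount of 0.1 the difference of Cpa3 was -5.10, and with 2 the differences were -1.74 for Cpa3, -1.65 for Mcpt4, -1.67 for Tpsb2, -1.07 for Cma1 and -1.23 for Kit, all called.

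The third comparison asked whether loss of connexin 43 in Cx3cr1-expressing cells, with macrophages present, went with a difference in mast cell transcripts. None was detected. The summed CPM of the 6 genes was 30.3, 29.2 and 24.6 in Cx3cr1 Cx43-/- libraries 4, 5 and 6, inside the range of 12.7 to 31.8 in control libraries. The low end of that range was control library 2 alone. Control libraries 1 and 3, at 31.8 and 30.7, lay above all 3 Cx3cr1 Cx43-/- libraries. Log2 differences of Cx3cr1 Cx43-/- minus control were 0.56 for Cma1, 0.42 for Kit, 0.34 for Tpsb2, 0.22 for Cpa3 and -0.12 for Mcpt4. Of the 5 tested genes limma called 0, with 0 at an unadjusted p under 0.05, and over all genes it called 0 higher and 1 lower (0.00774%). The 95% confidence intervals reached from -0.27 to 1.39 for Cma1, from -0.39 to 1.24 for Kit, from -0.46 to 1.13 for Tpsb2, from -0.63 to 1.06 for Cpa3 and from -0.83 to 0.59 for Mcpt4. A log2 difference of 1 lay inside the intervals of 4 of the 5 genes, so higher levels of that size were not excluded by these libraries. Without control library 2 the differences were -0.03 for Cma1, 0.04 for Kit, -0.08 for Tpsb2, -0.28 for Cpa3 and -0.33 for Mcpt4.

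**Figure D2:**
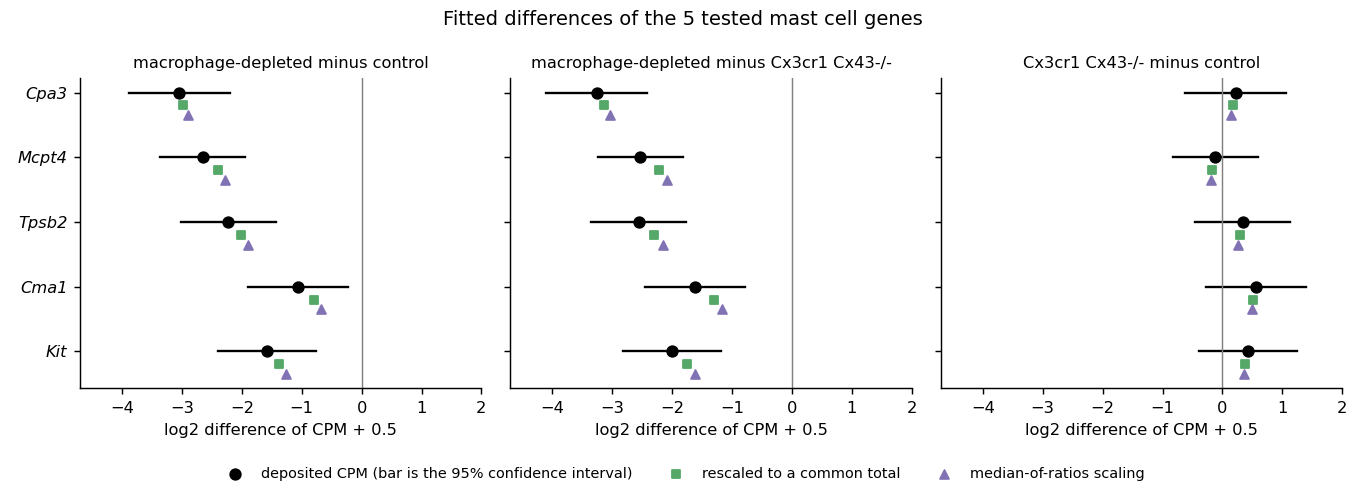
Fitted log2 differences of CPM + 0.5 for the 5 tested genes in the 3 comparisons, with 95% confidence intervals on the deposited scale (circles) and estimates after rescaling to a common total (squares) and median-of-ratios scaling (triangles). Intervals lie under 0 in both comparisons with depleted nodes and span 0 between Cx3cr1 Cx43-/- and control nodes; Cma1 lies nearest to 0 of the 5 in depleted against control nodes.

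The genes also differed in level among themselves. Per kilobase of exon (GENCODE M21 lengths, of another build than the authors' annotation), Mcpt4 stood at 6.04 ± 1.57 CPM per kb in Cx3cr1 Cx43-/- libraries and 6.59 ± 1.63 in control libraries (SD, n = 3 each), the highest of the 6 genes in each of those libraries. Tpsb2 (4.40 ± 0.455 and 3.70 ± 1.67 CPM per kb), Cma1 (4.29 ± 0.448 and 3.23 ± 1.96) and Cpa3 (3.39 ± 0.424 and 3.22 ± 1.77) followed, and in control libraries these neighbours lay within each other's spread. Kit was lower, at 0.876 ± 0.0874 and 0.682 ± 0.341 CPM per kb. In depleted libraries the order was different. Cma1 had the highest level in libraries 8 and 9 and Tpsb2 in library 7, and Cma1 made up 37.1% to 47.4% of the summed CPM per kb, against 20.0% to 24.7% in Cx3cr1 Cx43-/- and 10.8% to 20.3% in control libraries.

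The chymase pair showed this unequal change most simply, a contrast chosen after the values were seen. The ratio of Cma1 to Mcpt4 CPM within a library was 3.06, 1.37 and 1.22 in the depleted libraries 7, 8 and 9, 0.704, 0.552 and 0.936 in Cx3cr1 Cx43-/- libraries 4, 5 and 6, and 0.566, 0.203 and 0.573 in control libraries 1, 2 and 3. Every depleted library lay above every other library. The mean log2 ratio was 0.78 in depleted, -0.49 in Cx3cr1 Cx43-/- and -1.31 in control libraries. No test is given for this contrast, because it was chosen for its difference. The ratio does not depend on the scaling of a library. In the RefSeq order of protein-coding genes, Cma1 and Mcpt4 lie on chromosome 14 with Cma2, Mcpt1, Mcpt2 and Mcpt9 between them. Of the 50-base stretches of their GENCODE transcripts, 5.48% of Mcpt4 also occurred in Cma2 or Mcpt9 and 5.38% of Cma1 in the predicted gene Gm48934, so a small part of their reads could be shared. Cpa3, Tpsb2 and Kit shared none with another gene, and Ms4a2 shared 2.10% with Ms4a4b.

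**Figure D3:**
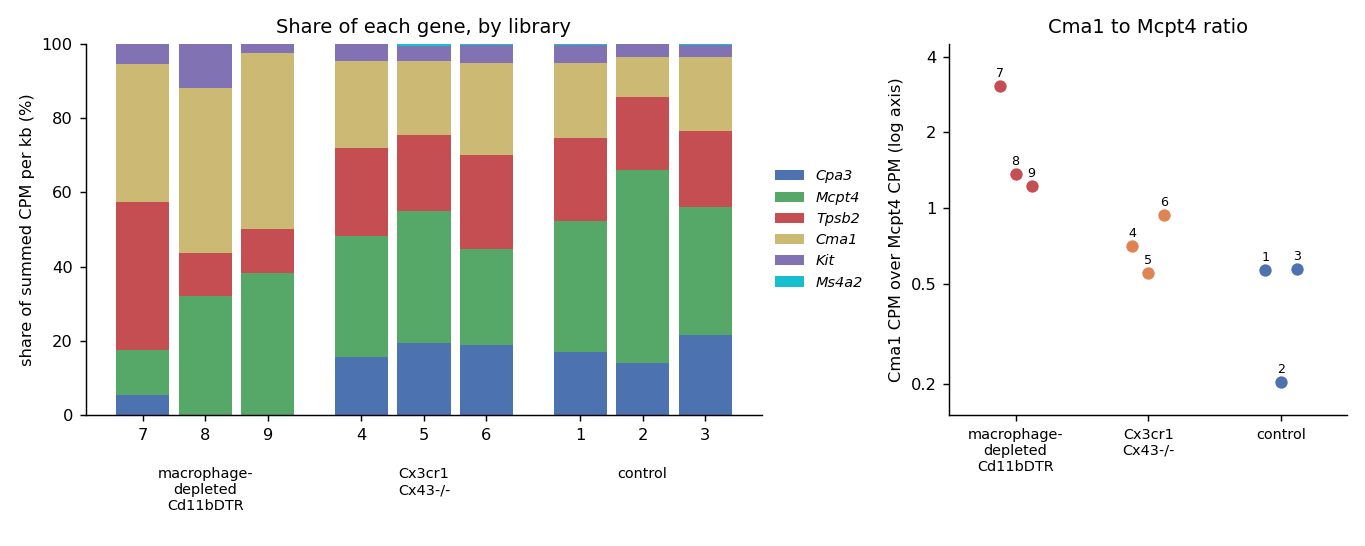
Left, the share of each gene in the summed CPM per kb of the 6 genes, by library (numbers) and group; right, the ratio of Cma1 to Mcpt4 CPM in each library on a log axis. Cma1 takes at least 37.1% in the depleted libraries and at most 24.7% in the others, and the ratio is at least 1.22 in the depleted libraries and at most 0.936 in the others.

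Other proteases of mast cells were scarce in the node. Mcpt1, Mcpt2 and Mcpt9 were listed at 0 in all 9 libraries, and none of the 8 other protease genes in the table reached the filter. The second tryptase, Tpsab1, stood at 0.71, 0.12 and 0.38 CPM in depleted, 0.35, 0.27 and 0.47 in Cx3cr1 Cx43-/- and 0.42, 0.00 and 0.73 in control libraries. Its groups overlapped, and its levels lay far under those of Tpsb2 in Cx3cr1 Cx43-/- and control libraries.

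The receptors through which mast cells are triggered were low. Fcer1a was listed at 0.00 CPM in all 3 depleted libraries, at 0.62, 0.65 and 0.08 in Cx3cr1 Cx43-/- and at 0.16, 0.00 and 0.31 in control libraries. Mrgprb1, a mast cell receptor of the Mas-related family, showed the same picture, with 0.00 in all depleted libraries, 1.41, 0.87 and 0.83 CPM in Cx3cr1 Cx43-/- and 0.64, 0.00 and 0.58 CPM in control libraries. Its relative Mrgprb2, the receptor for basic secretagogues, stood at 0.17, 0.00 and 0.00 CPM in depleted, 0.00, 0.42 and 0.31 in Cx3cr1 Cx43-/- and 0.54, 0.00 and 0.66 in control libraries. Control library 2 listed all 3 of these receptors at 0.

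Of 14 genes of the IgE receptor and its signalling, 12 were tested. In depleted against control nodes 5 of the 12 fell and 0 rose, where 33.0% of all genes tested were lower, and their median was -0.72, against -0.49 over all genes tested. These were the kinases Lyn (-0.68), Fyn (-0.76), Syk (-0.77) and Btk (-1.47) and the phospholipase Plcg1 (-1.05), none of which is confined to mast cells. On the common-total and median-of-ratios scales 2 were lower, Btk and Plcg1, where 19.6% and 13% of all genes were. The gamma chain gene Fcer1g, which macrophages and other myeloid cells share, averaged 5.40 ± 3.19 CPM in depleted and 8.88 ± 1.92 in control libraries and did not pass (-0.80, limma adjusted p = 0.0582). Against Cx3cr1 Cx43-/- nodes 9 of the 12 fell, adding Fcer1g (-1.22), the adaptor Gab2 (-0.66), Plcg2 (-1.24) and the phosphatase Inpp5d (-0.96), where 40.7% of all genes were lower. Of these 9, only Fyn and Plcg1 kept their call on the common-total and median-of-ratios scales, where 20.9% and 12.9% of all genes were lower.

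Kitl, the ligand of Kit, averaged 25.9 ± 5.93 CPM in depleted, 35.4 ± 0.761 in Cx3cr1 Cx43-/- and 32.2 ± 0.795 in control libraries (SD, n = 3 each). Its difference from control did not pass (-0.33, SE 0.21, limma adjusted p = 0.218). Of the 9 tested genes among 11 of the Kit axis, 3 fell and 0 rose against control, where 33.0% of all genes were lower, or 6 without control library 2, where 33.8% were. The 3 were the signal transducers Stat5a (-1.70) and Stat5b (-1.62) and the transcription factor Mitf (-1.00), which mast cells and melanocytes both need but many cell types express. The same 3 genes were lower on the common-total and median-of-ratios scales. The transcription factor Gata2 averaged 8.19 ± 2.03 CPM in depleted and 9.30 ± 1.74 CPM in control libraries (-0.18, limma adjusted p = 0.606). Against Cx3cr1 Cx43-/- nodes 6 fell, adding the adaptor Sh2b3 (-0.65), the phosphatase Ptpn6 (-1.12) and the kinase subunit Pik3cd (-0.86), beside 40.7% of all genes. On the common-total and median-of-ratios scales the calls of these added genes were lost, and those of Stat5a, Stat5b and Mitf held.

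Among 9 other surface receptors, 4 were tested, and their changes went both ways. Il1rl1, the interleukin-33 receptor, had 0.91, 0.00 and 0.00 CPM in the depleted libraries, 2.65, 3.65 and 2.22 in Cx3cr1 Cx43-/- and 1.90, 0.89 and 2.49 in control libraries. It was lower than in control, with a log2 difference of -1.61 (limma adjusted p = 0.00920), although control library 2 lay just under depleted library 7. The cytokine receptor beta chains Csf2rb and Csf2rb2, which other myeloid cells share, rose against control by 1.60 and 1.71, where 3.23% of all genes were higher. Without control library 2 these differences were 0.93 and 1.12, both still called, beside 2.61% of all genes. Csf2rb had 11.06, 7.71 and 7.90 CPM in the depleted libraries, against 5.38, 0.71 and 3.51 CPM in control libraries.

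Granule and secretion genes did not move as a block. Of 9 tested, 3 fell against control, where 33.0% of all genes did, the vesicular monoamine transporter Slc18a2 (-2.04), the heparin-modifying enzyme Ndst2 (-0.71) and the secretion factor Stxbp2 (-0.92). Slc18a2 stood at 0.64, 0.00 and 0.32 CPM in depleted, 2.94, 2.72 and 1.80 in Cx3cr1 Cx43-/- and 3.73, 2.03 and 2.51 in control libraries, with no overlap between depleted and other libraries. Of all genes tested, 38.0% were lower without overlap against control and 50.6% against Cx3cr1 Cx43-/- libraries. Hdc, which makes histamine, stood at 1.07, 0.56 and 0.00 CPM in depleted and 1.89, 0.32 and 1.31 CPM in control libraries, and it did not pass (-0.70, limma adjusted p = 0.260). On the common-total and median-of-ratios scales Slc18a2 alone was lower, where 19.6% and 13% of all genes were. The proteoglycan core Srgn and the fusion protein Vamp8, both found in many blood cells, were higher on those scales, where 8.79% and 13.1% of all genes were.

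Of 7 genes for lipid mediators, 2 fell and 1 rose against control, where 33.0% of all genes were lower and 3.23% higher. The shares over all genes are the same for the mediator targets given after them. Hpgds, the prostaglandin D synthase of haematopoietic cells, stood at 0.45, 0.00 and 0.00 CPM in depleted, 4.21, 3.64 and 4.85 in Cx3cr1 Cx43-/- and 2.86, 2.49 and 4.61 in control libraries (-2.59 against control, limma adjusted p = 3.49e-05). Alox5, the 5-lipoxygenase of leukotriene synthesis, fell by 1.78 on the log2 scale, and the inducible cyclooxygenase Ptgs2 rose by 1.71. On the common-total and median-of-ratios scales Alox5ap and Pla2g4a were also higher, where 8.79% and 13.1% of all genes were. Among 12 genes for targets of mast cell mediators, 6 were tested. The angiotensin receptor Agtr1a (-1.53) and the leukotriene receptor Cysltr1 (-0.92) fell against control, and the angiotensin-converting enzyme Ace rose (0.69). The calls of Agtr1a and Ace held on both other scales, and that of Cysltr1 did not. Without control library 2 the call of Ace was lost (0.57, limma adjusted p = 0.0595). The histamine receptors Hrh1, Hrh2 and Hrh3 did not reach the filter. Against Cx3cr1 Cx43-/- nodes the genes named in this paragraph that fell were Hpgds (-2.93), Alox5 (-2.13), Agtr1a (-1.83) and Cysltr1 (-0.98), with Ptgs1 (-0.86) and the protease-activated receptor F2rl1 (-1.18) in addition, and Ptgs2 rose (1.86), where 2.69% of all genes were higher. Il1rl1 (-2.22), Slc18a2 (-1.92), Ndst2 (-0.84) and Stxbp2 (-0.94) fell in that comparison too, and Csf2rb (1.32) and Vamp8 (0.62) rose, where 40.7% of all genes were lower. On the common-total and median-of-ratios scales the falls of Cysltr1, Ptgs1, F2rl1, Ndst2 and Stxbp2 lost their calls. Those of Hpgds, Alox5, Agtr1a, Il1rl1 and Slc18a2 kept them, where 20.9% and 12.9% of all genes were lower. Srgn, Pla2g4a, Ace, Csf2rb2 and Il3ra were called higher in addition, where 1095 and 1693 of 12925 genes were. Between Cx3cr1 Cx43-/- and control nodes limma called 0 genes of these mast cell related lists, with 2 of the IgE receptor list and 1 of the lipid list at an unadjusted p under 0.05.

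**Figure D4:**
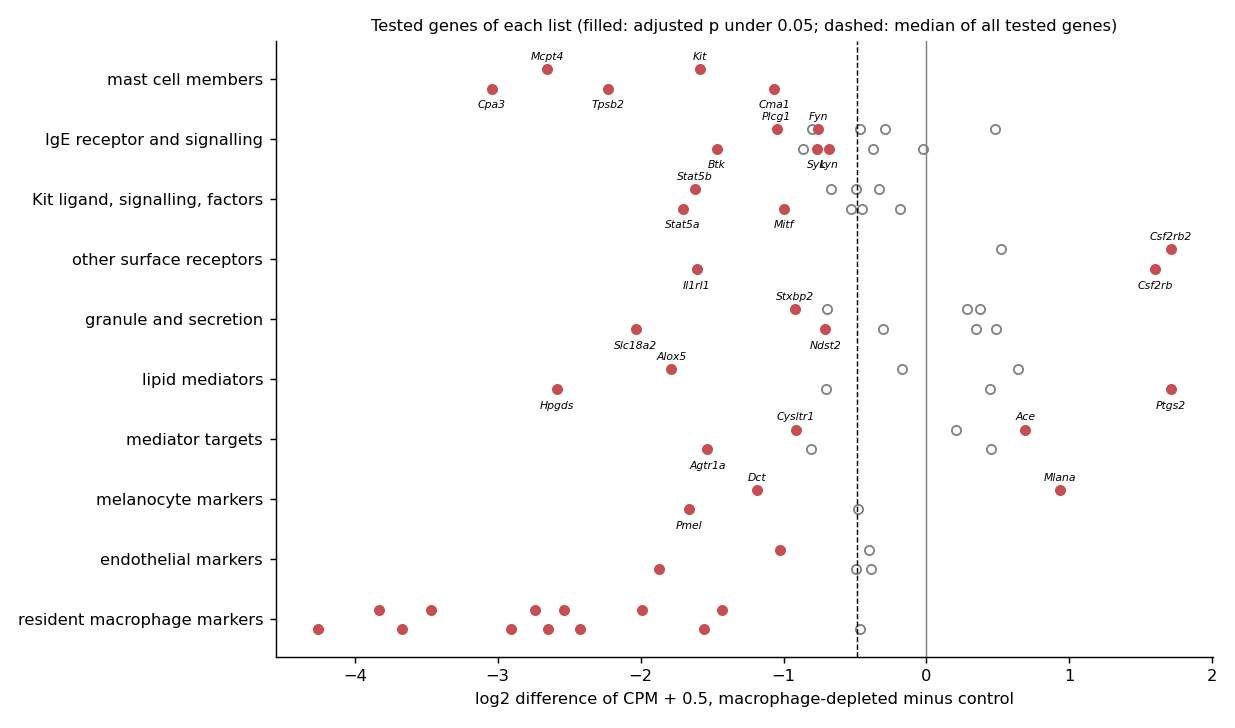
Log2 differences of CPM + 0.5, macrophage-depleted minus control, for every tested gene of the mast cell members, the mast cell related lists and 3 lists of other cell types. Filled points passed an adjusted p of 0.05, open points did not, and the dashed line is the median of all genes tested, -0.49. Cpa3, Mcpt4 and Tpsb2 lie among the resident macrophage markers, while Csf2rb, Csf2rb2 and Ptgs2 lie to the right of 0. The 8 AV node genes are not drawn. Among them Cacna2d2 (-2.97), Hcn4 (-2.54) and Cacna1g (-2.12) fell by similar amounts, and 2 did not pass.

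Markers of other cell types differed between depleted and control nodes to unequal extents, where 33.0% of all genes were lower and 3.23% higher. Of 13 resident macrophage markers 12 fell against control, with a median of -2.65, and their summed CPM was 64.0 to 74.8 in depleted and 292 to 477 in control libraries. Melanocyte markers, read beside Kit, summed to 20.4 to 26.5 CPM in depleted, 31.6 to 37.9 in Cx3cr1 Cx43-/- and 29.0 to 38.6 CPM in control libraries. Of 4 melanocyte genes tested, Dct (-1.19) and Pmel (-1.66) fell and Mlana rose (0.93), a call lost without control library 2 (0.42, limma adjusted p = 0.263). The call of Dct was lost on the median-of-ratios scale (-0.71, limma adjusted p = 0.0543). Of 5 endothelial markers 2 fell against control and 3 did not pass, and their summed CPM was 136 to 234 in depleted and 245 to 410 in control libraries. The basophil protease Mcpt8, the eosinophil genes Ccr3 and Epx and the neutrophil genes Ly6g, Elane and Mpo were listed at 0 in all 9 libraries. Of 8 AV node genes 6 fell against control, or 5 on each of the other scales, and they summed to 63.5 to 100.3 CPM in depleted and 285 to 331 CPM in control libraries. Their median log2 difference was -1.27. Cacna2d2 (-2.97), Hcn4 (-2.54) and Cacna1g (-2.12) fell furthest, and 2 of the 8 did not pass. The 6 neutrophil genes summed to 0.28 to 4.96 CPM in depleted and 0 to 0.15 CPM in control libraries. The 3 basophil markers summed to at most 0.58 CPM in any library. The part of these cell types in the fall of the mast cell genes was not tested.

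Within groups the mast cell genes also varied, and control library 2 stood lowest. After each group's mean was taken off, Pearson's r over the 9 libraries was 0.87 between Cpa3 and Cma1, the highest of the 10 pairs, and -0.03 between Mcpt4 and Tpsb2, the lowest. The mean standardised level of the 5 genes was -1.77 in control library 2 on this scale, while the other 8 libraries lay between -0.40 and 0.95. Outside the 6 genes, among those most like them in pattern over the 9 libraries were Tnfrsf14, 1600014C10Rik, Npr1, Smtnl2, 9030617O03Rik, Oxr1, Gja3, Slc7a4 and Add1 (r = 0.986 to 0.994). Tnfrsf14 stood at 0.00, 0.02 and 0.00 CPM in depleted, 1.45, 1.56 and 1.46 in Cx3cr1 Cx43-/- and 1.39, 0.48 and 1.38 in control libraries. The 9 points fall into the 3 depleted libraries and the 6 others, and the median r of all 12920 other tested genes was 0.69. With group means taken off, the most similar were Polr3f, Nrip2, Gabrg3, 1010001N08Rik, Fetub, Gtf2f2, Tmtc4, 2210407C18Rik, Gm885 and Eif2ak4 (r = 0.973 to 0.991, against a median of 0.29 and a 99th percentile of 0.911). That measure leaves out differences between groups, and the profile behind it has 1 extreme point, control library 2 at -1.77. How far these r values rest on that library was not tested. Fetub, Gtf2f2 and 2210407C18Rik had higher means in depleted than in control libraries, and the others had lower ones. Polr3f, a subunit of RNA polymerase III, shared the low value of control library 2, with 9.82, 2.75 and 9.45 CPM in the control libraries.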

How the data were processed

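The deposited table held CPM, which the authors rounded to 2 decimals, for 34198 symbols in 9 libraries. The mm9 build, HTSeq 0.6.0, STAR 2.3.0 and edgeR are named, per the submitters' processing notes, without their roles. The annotation and the strand setting of the counting are not given in the sources used here. Low values lay on steps of a single read, but after rounding only 21.9% to 42.1% of values under 5 CPM lay within 0.1 read of a whole number, so no count model was fitted. Of library pairs, 0 held identical values, and 12054 symbols were at 0 throughout.

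limma 3.58.1 (R 4.3.3) was run on log2(CPM + 0.5), with all 9 libraries in 1 model, variances moderated along the mean trend, and two-sided tests. A gene entered if 3 or more libraries reached 1 CPM (12925 genes, 5 of them members). The fit was tested on simulated data. Means are given ± SD over 3 libraries. Intervals cover the spread between libraries, and reads without molecular identifiers are not independent molecules.

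The members and the gene lists were chosen with earlier results of these data known. Named genes were the 6 members, every called gene of the mast cell related lists whose mean reached 1 CPM in some group, 8 genes of mast cell biology whatever their result, 3 genes of the mouse models, and the 10 genes most like the members by r in each of 2 ways, of which a gene is not reported here. Genes named beyond this rule were chosen after their values were seen. Alternatives were other pseudocounts, filters, scalings, weights, fits of only the compared groups and each library left out. Promoter sequences are from RefSeq and transcripts from GENCODE M21, both of GRCm38, so no coordinates of the authors' build are printed.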

Additional observations from a re-analysis of the deposited data

How the results depend on the processing

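Cpa3, Mcpt4, Tpsb2 and Kit kept their direction and their call, in depleted against control and against Cx3cr1 Cx43-/- nodes, under every alternative in which they were tested. Their sizes moved with the pseudocount, as given beside them. Of these 4 genes, Kit against control came nearest to the threshold. Its limma adjusted p was 0.0467 without a filter, 0.0427 without control library 1 and 0.0361 with quantile normalization. The filter at a mean of 5 CPM left none of the 5 genes to test. Cma1 against control lost its call with a pseudocount of 0.1 (-1.24, limma adjusted p = 0.0574), without a filter (-1.06, 0.171), after rescaling to a common total (-0.80, 0.160), with median-of-ratios scaling (-0.67, 0.233), with quantile normalization (-0.55, 0.301) and in a fit of only the compared groups (-1.06, 0.0823). With single libraries left out it ranged from -1.65 to -0.77, and it was called in 1 of 9 such fits, that without control library 2. Against Cx3cr1 Cx43-/- nodes Cma1 lost its call with quantile normalization (-1.00, 0.0594). With single libraries left out, 4 to 5 members were called against control. The count of all genes called against control ranged from 2667, without control library 1, to 6241, without depleted library 7. Against Cx3cr1 Cx43-/- nodes it was 5604, from 3284 to 7036 with single libraries left out, 3365 with median-of-ratios scaling and 3356 with quantile normalization. Between Cx3cr1 Cx43-/- and control nodes the count was 1, with 0 to 2 when single libraries were left out, 0 with a pseudocount of 0.1, 2 with a pseudocount of 2, 0 without a filter, 442 with library quality weights and 0 without control library 2 and depleted library 8, an alternative chosen after seeing the data. No member was among them in any of these fits. The cause of these changes was not tested. No paired analysis was possible because the groups share no replicate number. Ms4a2 and Fcer1a rested on at most about 38 reads a library, which limits what can be seen of them.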

Other observations

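Tpsg1, a membrane-anchored tryptase gene that did not reach the filter, went the other way from the granule tryptase Tpsb2. It had 2.07, 0.50 and 0.32 CPM in the depleted libraries 7, 8 and 9, 0.22, 0.14 and 0.20 CPM in Cx3cr1 Cx43-/- libraries 4, 5 and 6, and 0.16, 0.00 and 0.12 CPM in control libraries 1, 2 and 3. No test was made, and every value but that of depleted library 7 was under 1 CPM. The neutrophil and monocyte alarmins S100a8 and S100a9, also under the filter, stood at 3.31, 1.63 and 0.00 CPM and at 1.43, 1.52 and 0.28 CPM in the depleted libraries, against 0.07 to 0.46 CPM over both genes in Cx3cr1 Cx43-/- libraries and no more than 0.13 CPM in any control library. Both genes of this pair and Tpsg1 were chosen after their values were seen.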
